A study of Mus musculus with 83 samples.

Results

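Single fresh mouse ovarian follicles collected 8 h after hCG were compared with single fresh follicles collected at 0 h, to ask which transcripts stood at a new level at the end of an ex vivo ovulation assay and which stood where they had started. The libraries were taken by their sample titles alone: 4 labelled Fresh8 hours and 18 labelled Fresh0 hour, or 22 of the 83 libraries of the study. The study followed fresh and vitrified follicles at 0, 1, 4 and 8 h by full-length single-follicle RNA sequencing. Follicles of wild-type CD-1 mice were grown for 8 days in beads of 0.5% alginate in medium with 10 mIU/ml recombinant FSH. Those of 300 to 350 µm were then freed with alginate lyase and moved to maturation medium with 1.5 IU/ml hCG, which acts on the LH receptor, EGF at 10 ng/ml and again 10 mIU/ml FSH. The fresh groups had not been frozen. The labels list hCG as the treatment of every group, 0 h included, and name no animals, so the p-values reflect variation among follicles, some of which may share a mouse. The 6 fresh libraries of 1 h and the 7 of 4 h serve here only to place the 8 h level.

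The 18 libraries of 0 h filled rows E and F of 1 plate, and the 4 of 8 h stood in row B of another plate that also held the fresh 1 h and 4 h libraries. Time and plate therefore cannot be told apart in any difference between 8 h and 0 h. Differences between 8 h and 4 h lie within 1 plate and are given beside the genes where they bear on the result, although each time point had a row of its own there.

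The LH surge, for which hCG stands in, raises cAMP in the granulosa cells that line a large follicle. These cells release EGF-like ligands, switch on the progesterone receptor and other transcription factors, build a hyaluronan matrix around the oocyte and stop making estradiol. The oocyte leaves meiotic arrest when gap junctions close and the natriuretic peptide signal falls, and the follicle wall is opened by proteases. The granulosa cells then stop dividing and turn into progesterone-making luteal cells.

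Total counts per library ran from 1615780 to 6445430 at 8 h and from 1541700 to 6504590 at 0 h, with 13952 to 16885 and 14057 to 17220 genes detected. Neither differed by an exact permutation test of the group means (two-sided adjusted p over 9 measures = 0.481 for total counts). The makeup of the libraries did differ. Transcripts of a 14-gene granulosa marker list took 1.60% ± 0.288 (SD, n = 4) of the counts at 8 h and 6.59% ± 0.903 (SD, n = 18) at 0 h, with ranges of 1.37 to 2.02% and 4.66 to 8.17% (exact permutation test, adjusted p = 0.00246). The 14 theca and stroma markers took 0.0175 to 0.0579% at 8 h and 0.0359 to 0.334% at 0 h (exact permutation test, adjusted p = 0.00492). Each library's top 50 genes by count took 34.1 to 38.1% at 8 h and 37.7 to 54.7% at 0 h (exact permutation test, adjusted p = 0.00246). The oocyte markers took 0.00317 to 0.00661% and 0.00219 to 0.0168% (exact permutation test, adjusted p = 0.563). No marker that the table lists was at 0 in all 22 libraries, and granulosa markers were the most abundant list in every one of them. In whole follicles, fewer cells of a type and less of its RNA per cell cannot be told apart.

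**Figure D1:**
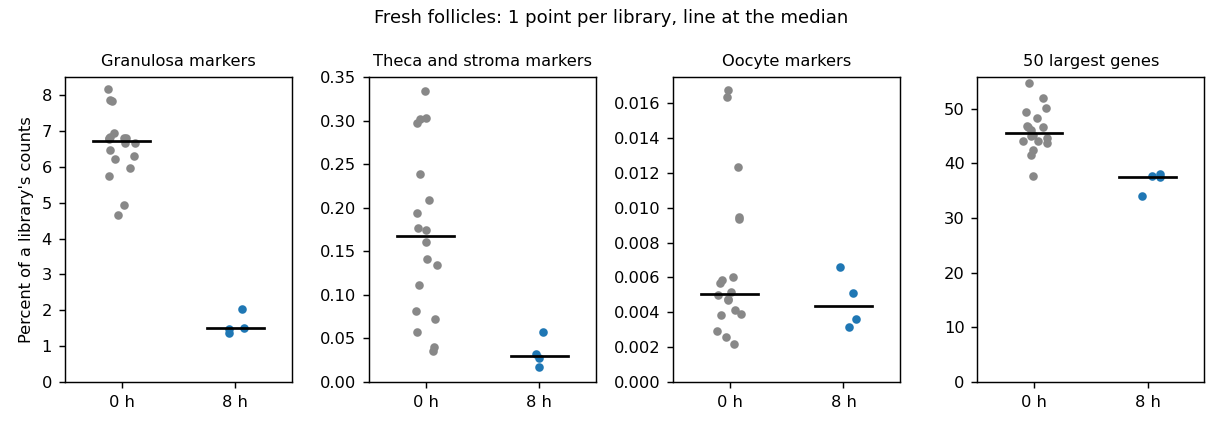
Percent of each library's counts in 3 marker lists and in its 50 most abundant genes, with 1 point per fresh library (0 h n = 18, 8 h n = 4) and a line at the median. The granulosa share lies between 1.37 and 2.02% at 8 h and between 4.66 and 8.17% at 0 h, while the oocyte shares overlap.

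Of 11889 genes with enough counts to test, 3057 rose (25.7%) and 3058 fell (25.7%) from 0 h to 8 h by edgeR's quasi-likelihood test at an adjusted p under 0.05. The counts of each gene list below are to be read beside these shares. A test against a 2-fold change placed 1252 genes (10.5%) over 2-fold higher and 1252 (10.5%) over 2-fold lower. A pair of one-sided tests placed 1921 genes (16.2%) within 2-fold of the 0 h level, and 7464 were placed on neither side. In 2722 genes (22.9%) no library of 8 h overlapped a library of 0 h. By limma on log2(TPM + 1) the called genes were 77.3% higher (5159 against 1517 lower). The median log2 fold change over all genes was -0.06, and with library totals alone in place of TMM scaling it was 0.08.

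Of 6578 genes that changed by at least 2-fold at 1 h or 4 h, 2038 were over 2-fold from 0 h at 8 h. Another 706 of them (5.94% of all tested genes) were within 2-fold, and 3834 were resolved neither way. Of 2503 genes that were only higher at the earlier times, 907 (36.2%) were still over 2-fold higher at 8 h, 259 (10.3%) were within 2-fold of 0 h, 33 were over 2-fold lower and 1304 were resolved neither way. Of 3971 genes that were only lower, 979 (24.7%) were still over 2-fold lower, 441 (11.1%) were within 2-fold, 64 were over 2-fold higher and 2487 were resolved neither way. With 6 genes that had gone both ways, the 259 and the 441 make up the 706 genes called back at the 0 h level. A further 65 genes (0.547% of all tested genes) were within 2-fold of 0 h at both 1 h and 4 h and over 2-fold away at 8 h. These comparisons share the 18 libraries of 0 h. Leaving out 1 library of 8 h gave 456 (without library 4) to 522 genes back, and a margin of 1.5-fold in place of 2-fold gave 3. Of the 20 genes named below as back, 4 (Amot, Ccnl1, Fbxo30 and Slc25a12) kept their placing under each of 14 alternative settings, where the settings by DESeq2 and limma show only that no difference was called.

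**Figure D2:**
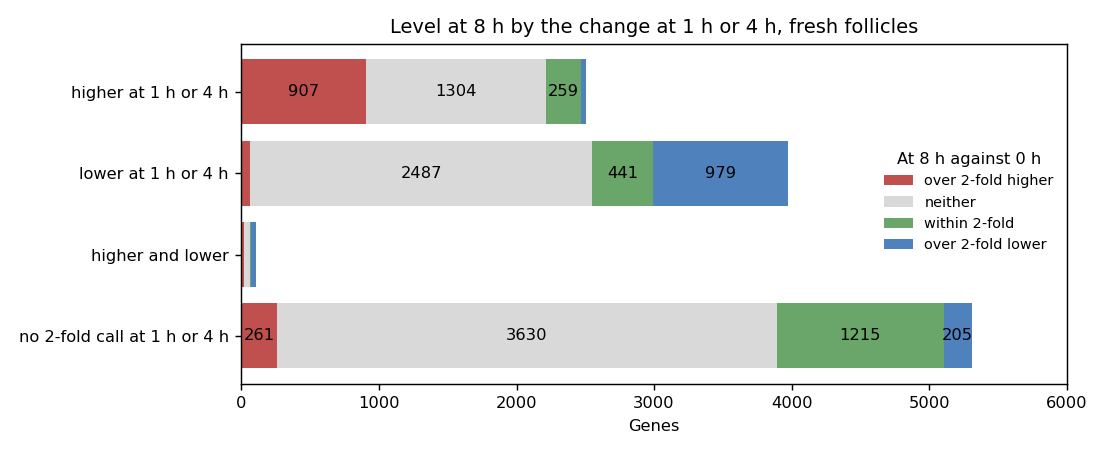
Number of genes by their change at 1 h or 4 h (rows) and their level at 8 h against 0 h (colours) in fresh follicles. Of 2503 genes higher early, 907 were still over 2-fold higher, and of 3971 genes lower early, 979 were still over 2-fold lower.

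Per length of transcript, Inha, the alpha subunit of inhibin, was the most abundant named transcript at both times, with a mean of 33981 TPM at 0 h and 19597 TPM at 8 h. Mrfap1 rose from 323 CPM (counts scaled by TMM to a common library size; the median of 18, with a range of 261 to 408 CPM) to 1647, 2002, 2100 and 1893 CPM at 8 h. Ucp2, an uncoupling protein of mitochondria, had 1589, 2580 and 3705 CPM (lowest, median and highest of 0 h) and 5466, 6617, 9262 and 11075 CPM at 8 h, with no overlap (log2 fold change 1.69 ± 0.29, edgeR adjusted p = 7.86e-07). These genes were chosen after their values were seen.

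The ovulatory transcription factors and their effectors had the highest median of the lists at 8 h, and with the 22 libraries of 0 h and 8 h fitted alone the cumulus matrix list did (6.71 over 6 genes, against 4.22 over 12). Of 15 tested members 14 rose and 1 fell, and the median log2 fold change was 5.61 (2.21 at 1 h and 3.78 at 4 h), where all genes had a median of -0.06 and 25.7% rose. Runx2, a runt-domain factor of luteinizing granulosa cells, on chr17:44495987-44814797 of GRCm38, had 0.38, 2.14 and 4.79 CPM at 0 h (lowest, median, highest). At 8 h it had 1572, 2555, 2313 and 1633 CPM, above the 4 h median of 952 CPM, and no library overlapped 0 h. The log2 fold change was 9.68 ± 0.28 (SE; edgeR adjusted p = 9.87e-46), the smallest p of the 60 genes named by size of change or return. Its relative Runx1 had a 4 h median of 1823 CPM and stood at 383, 452, 375 and 626 CPM at 8 h, against at most 4.7 CPM at 0 h.

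The progesterone receptor gene Pgr, on chr9:8899833-8968611, took the opposite course within the same list. It had 0, 2.26 and 8.85 CPM at 0 h, medians of 2047 CPM at 1 h and 7352 CPM at 4 h, and 3.74, 12.1, 26.4 and 9.21 CPM at 8 h. The 8 h libraries overlapped those of 0 h, although the difference passed the test (log2 fold change 1.99 ± 0.44, edgeR adjusted p = 9.42e-05). Zbtb16, Snap25 and Prkg2, of the same list, had their highest fresh median at 8 h. Zbtb16, a zinc finger factor, had at most 2.28 CPM at 0 h, a median of 1.95 CPM at 4 h and 30.4, 62, 70.9 and 57.4 CPM at 8 h. Snap25, a vesicle fusion protein, had medians of 0 CPM at 0 h and 9.56 CPM at 4 h, and 8.54 to 34.2 CPM at 8 h. Prkg2, a cGMP-dependent kinase, had no count in any of the 18 libraries of 0 h and 3.91, 4.52, 19.1 and 9.76 CPM at 8 h, which is at least 191-fold higher than a floor of 3 counts over the group.

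Il6, a cytokine, had 1 count over all libraries of 0 h and 57 at 8 h, a ratio of 168 with a 95% counting interval of 29 to 6761. Edn2, which contracts smooth muscle, had no count at 0 h, a 1 h median of 7.22 CPM and 1.84 to 4.89 CPM at 8 h, at least 61.8-fold over the floor. Cxcr4, a chemokine receptor, rose to 18.9 to 54.8 CPM from at most 1.2 CPM. Nrip1, a nuclear receptor corepressor, was the member that fell, from a median of 48 CPM to 8.52 to 12.3 CPM. Hif1a, with 1760, 2964, 1506 and 1704 CPM at 8 h and a median of 1525 CPM at 0 h, was within 2-fold of 0 h after a 4 h median of 3441 CPM. That placing was lost without library 1, 3 or 4 of 8 h.

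Fkbp5, a chaperone of steroid receptors and a known target of progesterone and glucocorticoid signals, was below its starting level at 1 h and 4 h and above it at 8 h. On chr17:28399094-28517527, it had 16.5, 31.6 and 40 CPM at 0 h, medians of 13.8 CPM at 1 h and 6.08 CPM at 4 h, and 118, 110, 152 and 160 CPM at 8 h. The groups of 0 h and 8 h did not overlap (log2 fold change 2.12 ± 0.21, edgeR adjusted p = 3.48e-15), and within the plate 8 h exceeded 4 h by 4.11 ± 0.29 on the log2 scale. It is one of the 64 genes that were lower early and over 2-fold higher at 8 h. Adm, the vasodilator adrenomedullin, also had its largest value at 8 h, with medians of 2 CPM at 0 h, 1.61 CPM at 1 h and 0 CPM at 4 h, and 24.6, 34.6, 36.7 and 7.73 CPM at 8 h. The lowest of these lies within the 0 h range of 0 to 9.14 CPM (log2 fold change 3.35 ± 0.45, edgeR adjusted p = 1.25e-09).

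**Figure D3:**
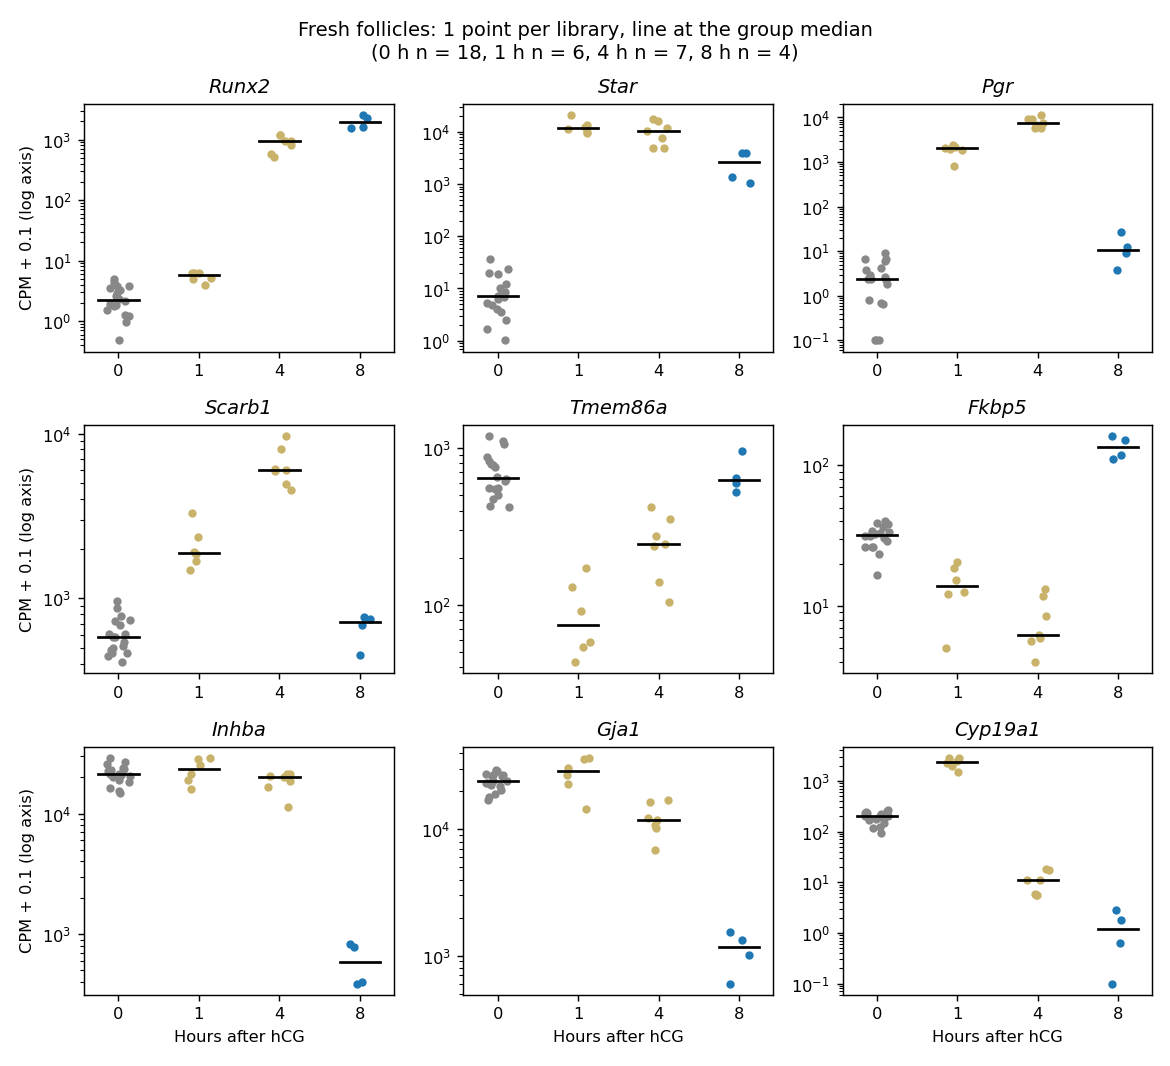
CPM of 9 genes in each fresh library on a log axis after adding 0.1, by hours after hCG, with a line at the median of each group. Runx2 and Fkbp5 are highest at 8 h, Scarb1 and Tmem86a lie among their 0 h points at 8 h, Pgr lies far below its 4 h points, Star remains above 0 h, and Inhba, Gja1 and Cyp19a1 lie below it.

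Among the EGF-like ligands, which carry the LH signal from mural to cumulus cells, Areg, Ereg, Btc and Epgn were below their 4 h level and still above 0 h, while Hbegf and Tgfa were below 0 h. Of 9 tested ligands and receptors 6 rose and 3 fell, beside 25.7% each way of all genes. Areg had 0, 0.342 and 1.37 CPM at 0 h, a 4 h median of 1025 CPM, and 8.01, 8.91, 17.6 and 6.26 CPM at 8 h, so that the groups did not overlap (log2 fold change 4.50 ± 0.48, edgeR adjusted p = 5.64e-13). Ereg, with a 4 h median of 3417 CPM, had 31.9, 63.9, 101 and 47.1 CPM at 8 h and at most 1.44 CPM at 0 h. Btc, with a 4 h median of 3574 CPM, had 63 to 95.7 CPM and at most 2.15 CPM at 0 h. Epgn had no count at 0 h and 0.184 to 2.71 CPM at 8 h, at least 34-fold over the floor. Hbegf fell from 307 counts over all libraries of 0 h to 3 at 8 h, a ratio of 0.0288 with a 95% counting interval of 0.00592 to 0.0851, and Tgfa fell by 1.40 on the log2 scale. The receptor gene Egfr was within 2-fold of 0 h at 1 h and 4 h and rose at 8 h, from 12.5, 27.8 and 43.1 CPM to 57.7, 100, 71.4 and 95.7 CPM, with no overlap (log2 fold change 1.46 ± 0.23, edgeR adjusted p = 4.35e-08). Erbb2, its partner receptor, rose from a median of 21.9 CPM to 46 to 62.1 CPM.

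The feedback genes of the cAMP and MAPK pathways stood at various levels. In the cAMP list 8 of 12 tested members rose and 2 fell (median log2 fold change 1.97, after 4.87 at 1 h and 4.14 at 4 h). In the MAPK list 5 of 8 rose and none fell (median 2.0, 8 genes), beside 25.7% each way of all genes. Crem, whose short product represses cAMP-driven promoters, had a median of 3.46 CPM at 0 h, 1067 CPM at 1 h and 7.3, 9.69, 17.1 and 5.71 CPM at 8 h. Rgs2, which brakes G protein signals, was still high: 16, 81.7 and 163 CPM at 0 h, a 1 h median of 4796 CPM, and 2082, 3101, 2610 and 2528 CPM at 8 h (log2 fold change 4.93 ± 0.21, edgeR adjusted p = 3.7e-36). The phosphodiesterases divided by gene. Pde4d rose from at most 1.14 CPM to 6.94 to 13.6 CPM, and Pde7b fell from 13.7, 24 and 60 CPM to 0.89 to 2.45 CPM after a 1 h median of 201 CPM. Prkar2b, a regulatory subunit of protein kinase A, fell from a median of 537 CPM to 22.6, 24.1, 8.31 and 64.3 CPM. The MAPK phosphatases Dusp4 and Dusp6 rose by 4.41 and 3.14 on the log2 scale, while Spry2, a receptor tyrosine kinase inhibitor, had a 4 h median of 33.2 CPM and 0 to 2.45 CPM at 8 h, within the 0 h range of 0 to 2.91 CPM.

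Adcyap1, which encodes the peptide PACAP, had 2 counts over all libraries of 0 h and 4262 at 8 h, a ratio of 6291 with a 95% counting interval of 1740 to 51962. Its 8 h libraries held 115, 317, 473 and 34.6 CPM, all above the 0 h maximum of 0.76 CPM. Its receptor gene Adcyap1r1 had 0.368 to 4.89 CPM at 8 h and 0 to 2.74 CPM at 0 h, which overlap (log2 fold change 1.38 ± 0.59, edgeR adjusted p = 0.042). For Adcyap1r1 that p was 0.319 without library 1 of 8 h and 0.132 without library 3.

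The immediate early genes had spread apart by 8 h. Of 28 tested members 12 rose, 4 fell and 12 did not pass the test, and none was placed within 2-fold of 0 h. Among all genes 25.7% rose, 25.7% fell and 16.2% were within 2-fold. The list median was 1.15 at 8 h, after 4.26 at 1 h and 1.88 at 4 h. Nr4a1, an orphan nuclear receptor, had a 1 h median of 21546 CPM and 89.1, 73, 134 and 90 CPM at 8 h, beside 9.1, 73.8 and 1253 CPM at 0 h (log2 fold change -0.89 ± 0.78, edgeR adjusted p = 0.348). The members of the AP-1 transcription factor differed most. Fosl1 rose from at most 0.817 CPM to 65.7, 76.1, 131 and 56.7 CPM (log2 fold change 9.37 ± 0.41, edgeR adjusted p = 2.47e-34). Jun fell from 377, 802 and 2002 CPM to 58.4, 59.3, 102 and 48.1 CPM (log2 fold change -3.70 ± 0.52, edgeR adjusted p = 5.64e-09), Fosl2 fell from a median of 1335 CPM to 424 to 633 CPM, and Fosb had 1877 counts over the libraries of 0 h and 1 at 8 h. Junb rose by 1.89 ± 0.45 on the log2 scale, to 194 to 304 CPM, and the highest 0 h library held 232 CPM. Klf6 and Ier3 kept 157 to 293 CPM and 303 to 501 CPM, above every library of 0 h.

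The full cAMP response element was searched as TGACGTCA on both strands in the 250 bases before the start of each gene, in 1 promoter per symbol, for the 8339 tested genes found in the RefSeq promoter table of GRCm38.p6. It was found in 2.85% of tested genes, in 12 of 205 genes (5.85%) called over 8-fold higher at 1 h, and in 2.34% of genes over 2-fold higher at 8 h. Among the genes over 8-fold higher at 1 h it was in 2 of 113 (1.77%) that were over 2-fold higher at 8 h and in 5 of 50 (10.0%) that were not called at 8 h. The 4 genes named here that had it and were over 8-fold higher at 1 h are shown with the element in capitals, 5′ to 3′ along the strand of the gene. Areg lies at chr5:91139512-91139571 (+), Btg2 at chr1:134079288-134079347 (-), Ccnl1 at chr3:65958250-65958309 (-) and Plk2 at chr13:110394956-110395015 (+).
Areg: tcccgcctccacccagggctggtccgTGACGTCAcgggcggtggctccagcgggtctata
Btg2: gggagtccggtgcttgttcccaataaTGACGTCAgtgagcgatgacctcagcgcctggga
Ccnl1: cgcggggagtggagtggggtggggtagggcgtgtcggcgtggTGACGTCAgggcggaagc
Plk2: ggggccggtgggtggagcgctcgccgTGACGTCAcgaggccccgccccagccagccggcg
Of these, Areg was the one that remained above 0 h. Btg2, which slows cell division, had a 1 h median of 3531 CPM and 17.3, 26.1, 79.7 and 16.6 CPM at 8 h against a 0 h median of 19.1 CPM. Plk2, a stress-induced kinase, had a 1 h median of 400 CPM and 3.31 to 7.82 CPM at 8 h against a 0 h median of 5.18 CPM, and neither was called at 8 h.

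The AP-1 site was searched as TGANTCA in the same windows. It was in 65 of 899 genes (7.23%) over 2-fold higher at 8 h, in 30 of 839 (3.58%) over 2-fold lower, in 17 of 570 (2.98%) that were back and in 3.84% of tested genes. In all 27025 promoters of the table, most of which belong to genes not tested here, the shares were 6.87% for the AP-1 site and 1.62% for the cAMP response element. A match describes letters in a window and says nothing of binding. Of 6 named genes with the site that were over 8-fold higher at 8 h, 5 are shown, and Hmga1b is left out as a near-identical copy of Hmga1. Other named genes with the site fell at 8 h, among them Gja1 (log2 fold change -4.43), Col6a1 (-3.53) and Igf1 (-2.12). The 5 shown are printed with the AP-1 site in capitals, 5′ to 3′ along the strand of the gene. Il6 lies at chr5:30012864-30012923 (+), Nts at chr10:102490593-102490652 (-), Plaur at chr7:24462387-24462446 (+), Srxn1 at chr2:152105395-152105454 (+) and Tnfaip6 at chr2:52037944-52038003 (+).
Il6: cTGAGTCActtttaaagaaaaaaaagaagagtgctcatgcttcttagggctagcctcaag
Nts: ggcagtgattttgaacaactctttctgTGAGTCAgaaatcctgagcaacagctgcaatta
Plaur: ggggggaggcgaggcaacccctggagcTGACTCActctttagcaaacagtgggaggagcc
Srxn1: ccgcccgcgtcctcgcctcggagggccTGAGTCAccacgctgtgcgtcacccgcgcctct
Tnfaip6: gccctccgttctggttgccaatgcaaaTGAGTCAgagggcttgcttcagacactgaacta
Nts, the peptide neurotensin, had at most 5.61 CPM at 0 h and 588, 241, 516 and 645 CPM at 8 h. Srxn1, which repairs oxidized peroxiredoxins, had a 1 h median of 279 CPM and 6.97 to 15.2 CPM at 8 h, above the 0 h maximum of 2.21 CPM.

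In the list of cumulus expansion and matrix genes, which also holds prostaglandin genes, 7 of 9 tested members rose from 0 h and 2 fell. Among all genes 25.7% went each way. The list median was 2.73 on the log2 scale, below its 4.86 at 1 h and 4.99 at 4 h. With the 22 libraries of 0 h and 8 h fitted alone, 6 members passed the filter, of which 4 rose and 2 fell (median 6.71). Vcan, the proteoglycan versican, on chr13:89655312-89742509, had 236, 616 and 1211 CPM at 0 h and 10726, 19719, 18106 and 16070 CPM at 8 h, next to a 4 h median of 20534 CPM. The 8 h and 0 h libraries did not overlap (log2 fold change 4.62 ± 0.19, edgeR adjusted p = 4.33e-37), and 8 h did not differ from 4 h by the test (edgeR adjusted p = 0.29). Tnfaip6, which couples hyaluronan to its protein partners, had a 4 h median of 3328 CPM and 91.5, 183, 193 and 66.7 CPM at 8 h, above the 0 h maximum of 1.18 CPM. Ptx3, a pentraxin that cross-links the matrix, had 3 counts over the 0 h libraries and 143, 198, 107 and 749 CPM at 8 h, where library 4 stands apart.

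Ptgs2, the inducible cyclooxygenase, had 1 count over all libraries of 0 h, a 4 h median of 2048 CPM and 19.6, 14.9, 14.7 and 37.4 CPM at 8 h, a ratio to 0 h of 1352 with a 95% counting interval of 241 to 53517. Has2, the hyaluronan synthase, had 0, 0.904, 0.489 and 3.13 CPM at 8 h and 0 to 0.586 CPM at 0 h, so the groups overlapped (log2 fold change 2.33 ± 0.63, edgeR adjusted p = 0.00123). Without library 4 of 8 h the edgeR adjusted p of Has2 was 0.254. Ptges, which makes prostaglandin E2, fell from 70.6, 117 and 162 CPM to 15.8, 13.6, 16.6 and 19.5 CPM with no overlap.

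Among 17 tested proteases and inhibitors 10 rose and 2 fell (median log2 fold change 1.50), beside 25.7% each way of all genes. Adamts1, which cleaves versican, had a 1 h median of 5390 CPM and stood at 571, 837, 630 and 444 CPM at 8 h, above the 0 h range of 115 to 389 CPM (log2 fold change 1.50 ± 0.19, edgeR adjusted p = 2.22e-10). Ctsl, the lysosomal protease cathepsin L, rose from 844, 1373 and 2084 CPM to 5899, 15781, 9199 and 7469 CPM (log2 fold change 2.78 ± 0.18, edgeR adjusted p = 2.66e-25). Plau, the urokinase activator of plasminogen, had a 4 h median of 9847 CPM and 901, 813, 874 and 510 CPM at 8 h, above the 0 h maximum of 326 CPM. The inhibitor Timp1 rose from at most 10.6 CPM to 221 to 474 CPM, while Timp3, with 42.2 to 251 CPM at 8 h and 59.9 to 328 CPM at 0 h, was not called (log2 fold change -0.52 ± 0.46, edgeR adjusted p = 0.362). Mmp19 rose from at most 2.06 CPM to 13.4 to 19.1 CPM, Adamts5 fell by 3.25 ± 0.39 on the log2 scale, and Serpine2 was within 2-fold of 0 h.

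Among the 15 genes with the largest rises, Sult1e1 stood first. It encodes the estrogen sulfotransferase, which inactivates estradiol. It had 1 count over the 18 libraries of 0 h, a 4 h median of 7974 CPM and 301, 217, 344 and 204 CPM at 8 h, a ratio to 0 h of 15315 with a 95% counting interval of 2748 to 605029. Akr1b7, an aldo-keto reductase of steroid-making cells, had no count at 0 h and 20.6, 132, 73.4 and 27.1 CPM at 8 h, at least 1299-fold over the floor. Spp1, the secreted matrix protein osteopontin, had 0, 0.137 and 12.2 CPM at 0 h, a 4 h median of 18.2 CPM and 2047, 1010, 1125 and 1686 CPM at 8 h. Spp1 rose between 4 h and 8 h by 6.35 ± 0.59 on the log2 scale within the plate. Mrap, a helper of melanocortin receptors, rose from a median of 2.84 CPM to 989, 1391, 1334 and 915 CPM (log2 fold change 8.40 ± 0.29, edgeR adjusted p = 3.83e-40).

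Lyve1, a hyaluronan receptor known from lymphatic vessels, had 5.52, 11.2, 1208 and 4.6 CPM at 8 h and at most 0.408 CPM at 0 h. Its mean is that of 1 library, in which the endothelial markers took 0.00415% of the counts. That share lies within the 0 h range but above the 0.00156 to 0.00186% of the other 3 libraries of 8 h. For Lyve1 itself the other 3 libraries were above every library of 0 h. Rnd3, Mpzl2 and Nts rose by 8.34, 9.41 and 8.30 on the log2 scale. Hmga1 and Hmga1b rose by 8.37 and 9.34, and since they are near-identical copies their counts may be split between them.

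Steroid-making genes changed in opposite directions along the pathway. Of 14 tested genes of progesterone synthesis and cholesterol delivery 7 rose and 5 fell (median log2 fold change 0.77). Among all genes 25.7% rose and 25.7% fell. Star, which carries cholesterol into mitochondria, on chr8:25806555-25815982, had 0.91, 7.03 and 37.4 CPM at 0 h and 1356, 3928, 3940 and 1068 CPM at 8 h. That is below its 1 h median of 11886 CPM and above every library of 0 h (log2 fold change 8.02 ± 0.46, edgeR adjusted p = 1.58e-25). Cyp11a1, which makes pregnenolone from cholesterol, had 163, 698 and 3420 CPM at 0 h and 1492, 3872, 2696 and 990 CPM at 8 h, which overlap (log2 fold change 0.90 ± 0.60, edgeR adjusted p = 0.213). Its electron donors rose: Fdx1 from 103, 202 and 442 CPM to 1046, 944, 1193 and 770 CPM, and Fdxr from a median of 56.6 CPM to 89.6 to 118 CPM after a 1 h median of 14.2 CPM.

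Hsd3b1, which turns pregnenolone into progesterone, fell from 19988, 24715 and 33038 CPM to 6918, 7028, 5966 and 10725 CPM with no overlap (log2 fold change -1.72 ± 0.20, edgeR adjusted p = 3.08e-12). Scarb1, the HDL receptor that brings in cholesterol, is on chr5:125277087-125341094 and was back at its starting level. It had 410, 582 and 963 CPM at 0 h, medians of 1873 CPM at 1 h and 6038 CPM at 4 h, and 684, 744, 767 and 451 CPM at 8 h (log2 fold change 0.12 ± 0.28). Scarb1 was not placed within 2-fold without library 4 of 8 h (adjusted p of the within-2-fold test = 0.0811), and by limma on log2(TPM + 1) it was higher by 0.69.

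Genes of estradiol synthesis and of FSH-dependent granulosa cells were low: of 18 tested 1 rose and 15 fell, 14 of them over 2-fold, with a median log2 fold change of -2.70 (all genes -0.06, 25.7% lower). Cyp19a1, the aromatase that makes estradiol, on chr9:54165937-54268110, had 92.9, 199 and 270 CPM at 0 h, a 1 h median of 2394 CPM and 0.534, 1.68, 0 and 2.76 CPM at 8 h (log2 fold change -7.04 ± 0.51, edgeR adjusted p = 9.59e-21). Hsd17b1, which completes estradiol, had 1883, 2417 and 2970 CPM at 0 h and 21.7, 20.9, 3.91 and 64.8 CPM at 8 h. Both were far below every library of 0 h. The estrogen receptor genes Esr2 and Esr1 fell by 4.94 and 2.35 on the log2 scale.

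The FSH receptor gene Fshr had partly returned. It had 32.6, 82.5 and 123 CPM at 0 h, a 4 h median of 0.65 CPM and 21.4, 37.1, 35.2 and 35 CPM at 8 h, 3 of which lie inside the 0 h range (log2 fold change -1.36 ± 0.37, edgeR adjusted p = 0.00125). Within the plate it rose from 4 h to 8 h by 5.24 on the log2 scale (edgeR adjusted p = 5e-13). Lhcgr, the receptor for LH and hCG, fell from 774, 1740 and 7734 CPM to 282, 276, 418 and 150 CPM with no overlap (log2 fold change -3.31 ± 0.70, edgeR adjusted p = 4.26e-05). Igf1r, the receptor for insulin-like growth factor 1, was back within 2-fold of 0 h after a 4 h median of 90.9 CPM, though not without library 1 or 3 of 8 h. Bex1 was the member that rose, from at most 6.39 CPM to 11.7 to 15.8 CPM.

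Of the inhibin and activin genes, Inhba and Inha fell late, and Inhbb and Fst were already lower at 4 h. Inhba, the beta A subunit, on chr13:16011851-16031621, was flat at 1 h and 4 h, with medians of 23376 and 20003 CPM beside 14823, 21230 and 28887 CPM at 0 h. At 8 h it had 388, 827, 403 and 778 CPM, far from every earlier library (log2 fold change -5.15 ± 0.27, edgeR adjusted p = 2.15e-30). Inha fell from 18466, 28956 and 37540 CPM to 9705, 10461, 11454 and 13756 CPM after a 4 h median of 39494 CPM (log2 fold change -1.38 ± 0.16, edgeR adjusted p = 3.4e-12). Inhbb, the beta B subunit, was already at a 4 h median of 1.92 CPM and had 0.356 to 2.39 CPM at 8 h, against a 0 h median of 278 CPM. Fst, which binds activin, fell from a median of 166 CPM to 14.6 to 60.4 CPM.

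Factors that define granulosa identity were lower too, several of them from 1 h on. Foxl2, with a log2 fold change of -3.24 at 1 h, fell by 4.32 ± 0.48 on the log2 scale, Nr5a2 from 596, 1027 and 1470 CPM to 50.2, 48.7, 46.5 and 51 CPM, Nr5a1 from a median of 317 CPM to 83.3 to 158 CPM, and Gata4 from a median of 478 CPM to 55.7 to 84.6 CPM. Gata6, a relative of Gata4, was not called (log2 fold change -0.63 ± 0.38, edgeR adjusted p = 0.16). Beside 25.7% of all genes lower and 10.5% over 2-fold lower, 12 of the 13 tested granulosa markers fell, 11 of them over 2-fold (median -4.32). That list shares 9 genes with the estradiol and FSH list, so the counts are not separate evidence. The granulosa marker share of the libraries, 1.37 to 2.02% at 8 h, is summed from the granulosa marker list itself, so it is not separate evidence either. The part of granulosa cell number in these changes was not tested.

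Among enzymes that inactivate steroids, 4 of 7 tested rose and 3 fell, beside 25.7% each way of all genes. Akr1c18, which inactivates progesterone, had medians of 0.129 CPM at 0 h and 0 CPM at 4 h, and 2.67, 6.33, 7.82 and 0.368 CPM at 8 h, the last of them inside the 0 h range (log2 fold change 3.20 ± 0.68, edgeR adjusted p = 4.84e-05). Hsd17b4, a peroxisomal enzyme, rose from 14.4, 21.7 and 29.2 CPM to 49.8, 51.7, 73.4 and 57.1 CPM. Hsd11b2, which inactivates glucocorticoids, had the largest fall of all named genes, from 15.5, 141 and 318 CPM to 0.356, 0.129, 0 and 0.184 CPM (log2 fold change -9.36 ± 0.70, edgeR adjusted p = 3.63e-20). Akr1c14 fell from a median of 912 CPM to 0.978 to 5.16 CPM, in a family whose close members can share reads.

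A mixed list of meiotic arrest, gap junction and cumulus signal genes was in part low. Of 10 tested members none rose and 6 fell (median log2 fold change -3.41), beside 25.7% each way of all genes. Those that fell were Nppc, Npr2, Gja1, Amhr2, Bmpr1b and Bmpr2, and Gja4, Kitl, Bmpr1a and Pde5a were not called. Nppc, the natriuretic peptide of mural cells, had 47.8, 82.1 and 128 CPM at 0 h and 0.356, 0.775, 0.978 and 0.921 CPM at 8 h. Its receptor gene Npr2 fell from 44.3, 65.1 and 97.3 CPM to 2.49, 3.1, 1.47 and 2.58 CPM. Gja1, the connexin of granulosa gap junctions, on chr10:56377330-56402513, had 16958, 24033 and 29568 CPM at 0 h, a 4 h median of 11890 CPM and 1013, 1330, 602 and 1540 CPM at 8 h. All were below every library of 0 h, and Gja1 fell by 4.43 ± 0.30 on the log2 scale (edgeR adjusted p = 4.71e-23). The BMP receptor genes Bmpr2 and Bmpr1b, through which oocyte growth factors act, fell by 4.03 and 4.36, while Bmpr1a was within 2-fold of 0 h. None of 12 tested oocyte markers was called, among them Gdf9 (-0.52) and Zp3 (-0.31), and these took at most 0.0168% of the counts.

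Luteinization genes moved both ways: 5 of 11 tested rose and 4 fell, beside 25.7% each way of all genes. Cdkn1a, an inhibitor of the cell cycle, rose from 6.46, 43.6 and 71.5 CPM to 540, 1131, 1332 and 608 CPM and did not differ from 4 h by the test (log2 fold change from 0 h 4.48 ± 0.26, edgeR adjusted p = 1.18e-26). Parm1, a gene of forming corpora lutea, rose from a median of 17.6 CPM to 1955, 1509, 2168 and 1433 CPM. Lrp8, a lipoprotein receptor, and Cd63, a tetraspanin, rose by 2.81 and 3.13 on the log2 scale, and Cdkn1b fell by 1.77. Of 26 tested genes of the cell cycle and DNA replication 14 fell and 1, Tyms, rose (median -0.98). Top2a, which untangles replicated DNA, fell from a median of 38 CPM to 0.356, 1.68, 4.89 and 8.47 CPM, and Mcm3, a part of the replicative helicase, from 7.96, 21.5 and 45.8 CPM to 0.89 to 2.95 CPM. Of the 14 that fell, 13 overlapped 0 h. Cdk4 was within 2-fold of 0 h (log2 fold change -0.07).

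The genes with the largest falls were mostly gone by 8 h. Trib2, a pseudokinase, fell from 1016, 1977 and 3312 CPM to 10.9, 18.7, 9.29 and 12.3 CPM (log2 fold change -7.31 ± 0.42, edgeR adjusted p = 1.66e-27). Nap1l5, an imprinted gene, fell from 586, 2180 and 3322 CPM to 8.36, 11.4, 12.7 and 26.5 CPM after a 1 h median of 3870 CPM. Car14, a membrane carbonic anhydrase, fell from a median of 368 CPM to at most 1.6 CPM, and Cbs, which makes cystathionine, from a median of 84.1 CPM to at most 0.89 CPM. Smim10l2a, Slc24a4, Mro, Fam13a and Kctd14 fell by between 6.62 and 8.93 on the log2 scale. Serpina3a fell by 6.60, in a family of near-identical genes. None of the 15 overlapped 0 h, which the rule for naming them required.

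**Figure D4:**
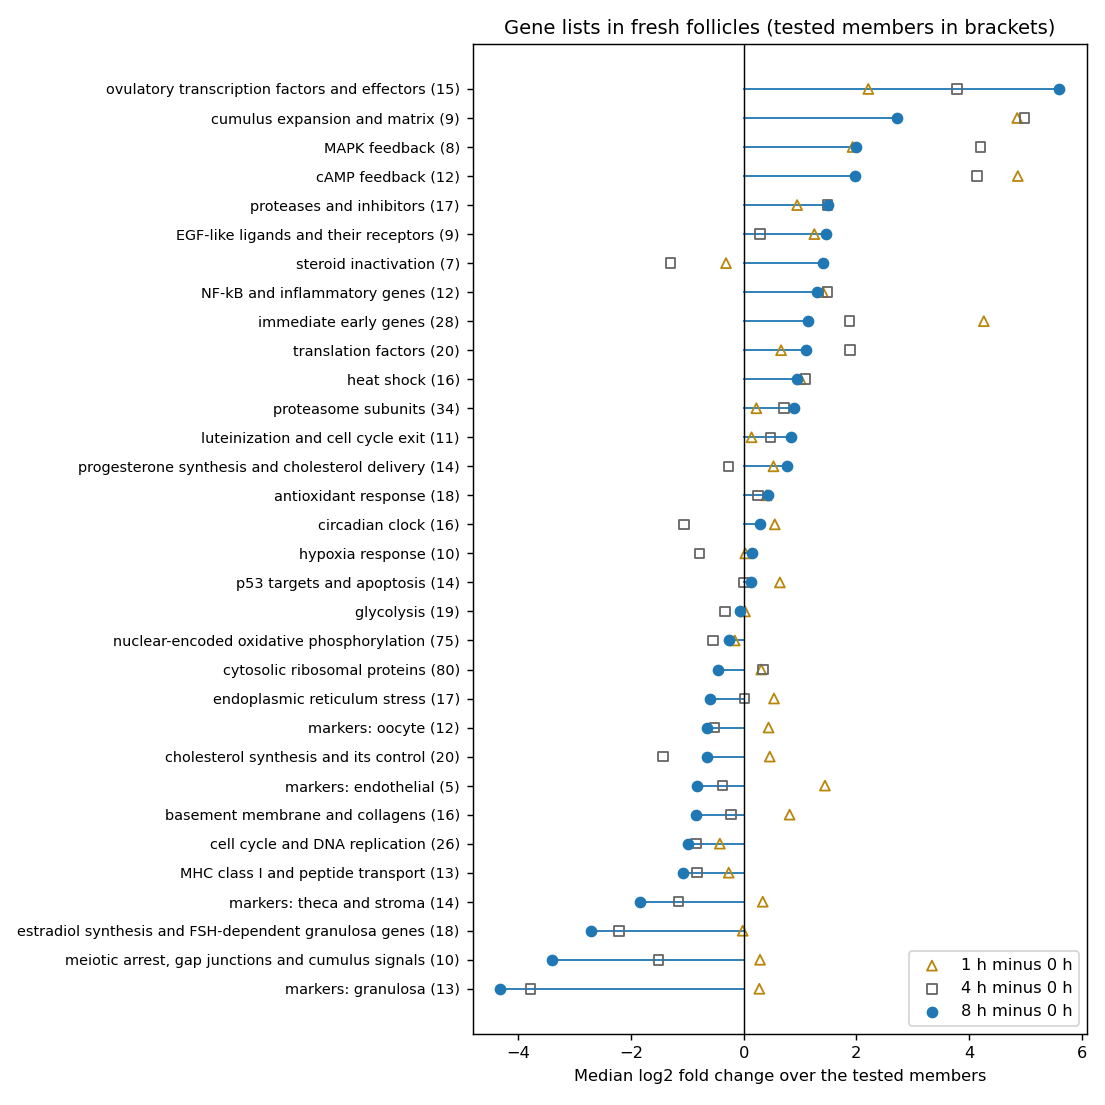
Median log2 fold change from 0 h over the tested members of each gene list with at least 5 tested members, at 1 h (triangles), 4 h (squares) and 8 h (filled points). At 8 h the ovulatory transcription factors have a median of 5.61 and the granulosa markers one of -4.32.

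The genes back at the 0 h level included 259 that had been higher. Ccnl1, a cyclin that acts in splicing and whose promoter is shown above, had 24.5, 33.2 and 43.5 CPM at 0 h, a 1 h median of 716 CPM and 19.9, 33.1, 31.8 and 23.6 CPM at 8 h (log2 fold change -0.31 ± 0.20). Gcnt4, a glycosyltransferase, had a 4 h median of 536 CPM and 37, 21.2, 28.4 and 10.7 CPM at 8 h, beside 12.5, 22.8 and 54.2 CPM at 0 h. Amot, a regulator of YAP, had a 4 h median of 114 CPM and 7.47 to 11.2 CPM at 8 h, beside a 0 h median of 10.2 CPM. Impact, Fbxo30, Dnajb9, Skil, Alas1 and Ppp1r15b had 1 h medians of 81.5 to 269 CPM and lay within 0.53 of 0 h on the log2 scale at 8 h. Ppp1r15b, which helps restart translation after stress, was called higher at 8 h all the same (0.53 ± 0.18, edgeR adjusted p = 0.0105), as 68 of the 706 genes were in either direction. The placing within 2-fold was lost without library 1 for Gcnt4, Impact and Ppp1r15b, without library 2 for Alas1, Dnajb9, Gcnt4, Skil and Ppp1r15b, without library 3 for Gcnt4, Impact and Ppp1r15b, and without library 4 for Alas1, Dnajb9, Gcnt4, Skil and Ppp1r15b.

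The 441 genes that came back after being lower included regulators of survival, metabolism and chromatin. Tmem86a, a lysoplasmalogenase-like membrane protein, had 420, 644 and 1187 CPM at 0 h, a 1 h median of 74.5 CPM and 602, 959, 649 and 524 CPM at 8 h (log2 fold change -0.05 ± 0.29). Slc25a12, the mitochondrial aspartate and glutamate carrier, had 38.3, 53 and 100 CPM at 0 h, a 4 h median of 2.56 CPM and 54.4, 58.4, 45 and 56.5 CPM at 8 h. Both sets of 8 h libraries lay inside the range of 0 h. Bcl2l1, which protects cells from apoptosis, had medians of 51.4 CPM at 0 h and 5.2 CPM at 4 h and 28.9 to 54.3 CPM at 8 h. Adi1, Slf2, Mdc1, Lss, Cyb5b, Nfatc3 and Atf7ip lay within 0.52 of 0 h on the log2 scale, and Slf2 (0.51) and Cyb5b (-0.52) were called as well. The placing was lost without library 1 for Adi1, Bcl2l1, Cyb5b and Lss, without library 2 for Bcl2l1 and Tmem86a, without library 3 for Adi1, Bcl2l1 and Slf2, and without library 4 for Cyb5b.

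The 65 genes with a new level at 8 h alone comprised 33 that rose and 32 that fell. Inhba had the largest change. Sema5a, a guidance factor, fell from 640, 1481 and 2554 CPM to 136, 132, 111 and 195 CPM, and Cyb5a, cytochrome b5, from 443, 973 and 1327 CPM to 133, 184, 116 and 126 CPM. Igf1, insulin-like growth factor 1, fell from 38.7, 184 and 311 CPM to 48, 33.7, 19.6 and 69.4 CPM, with 2 of the 4 inside the 0 h range. Ccnd3, a D-type cyclin, on chr17:47505051-47599691, rose from 18.3, 34.5 and 64 CPM to 248, 194, 237 and 203 CPM with no overlap (log2 fold change 2.65 ± 0.19, edgeR adjusted p = 1.89e-21). Leprot, Sfxn3, Smarca1, Sdc4 and Bbx rose by 1.86 to 2.05 on the log2 scale, none overlapping 0 h. All 10 named genes of this kind differed between 4 h and 8 h within the plate, with edgeR adjusted p of at most 3.1e-06. The rule that chose them nearly fixes this, so it is not separate evidence. It asked for a level within 2-fold of 0 h at 4 h and over 2-fold away at 8 h. With 0 h libraries of row E or of row F alone, 41 and 39 genes met the rule.

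Some genes crossed the 0 h level. Among the 33 that were higher early and over 2-fold lower at 8 h, 4 were chosen after their values were seen. Bmp2, a bone morphogenetic protein, had 75.2, 152 and 304 CPM at 0 h, medians of 1043 CPM at 1 h and 515 CPM at 4 h, and 28.8, 13.4, 7.82 and 10.7 CPM at 8 h (log2 fold change -3.43 ± 0.42, edgeR adjusted p = 5.37e-11). Ddit4l, an inhibitor of mTOR signalling, had a median of 110 CPM at 0 h and 915 CPM at 1 h, and 5.87, 2.32, 3.42 and 4.23 CPM at 8 h. Enc1 and Csrp2 fell by 3.24 and 2.90 on the log2 scale after 1 h medians of 1966 and 293 CPM. None of the 4 overlapped 0 h at 8 h. By contrast Sgk1, a kinase induced by steroids and FSH, and Mid1, a ubiquitin ligase, differed little between 1 h and 8 h. Both were also chosen after their values were seen. Sgk1 rose by 7.57 at 1 h and 7.61 at 8 h, and Mid1 by 4.95 and 4.88. The 1 h and 8 h libraries share a plate that held no 0 h library, so time and plate cannot be told apart for these genes. Of the 2504 genes over 2-fold from 0 h at 8 h, 343 differed by the test from neither 1 h nor 4 h.

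Cholesterol synthesis was a list of returns and falls, with a median log2 fold change of -0.66 (0.46 at 1 h and -1.43 at 4 h). Of 20 tested genes none rose, 10 fell, 8 were within 2-fold of 0 h and 5 of these were back. Among all genes 25.7% rose, 25.7% fell, 16.2% were within 2-fold and 5.94% were back. Cyp51 and Insig1 came back from 1 h medians of 609 and 815 CPM, and Lss and Dhcr7 from 4 h medians of 17.5 and 46.2 CPM. The placing of Insig1 was lost when any 1 of the 4 libraries of 8 h was left out, and that of Cyp51 without library 1 or 4. Insig1, which restrains the SREBP pathway, had 96.3, 110, 145 and 103 CPM at 8 h and 102, 155 and 265 CPM at 0 h. Fdft1, which commits the pathway to sterols, fell from 542, 910 and 1614 CPM to 156 to 247 CPM.

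Of 19 tested glycolysis genes 3 rose, 6 fell and 8 were within 2-fold, where 25.7% of all genes rose, 25.7% fell and 16.2% were within 2-fold. The median was -0.06 (0.06 with library totals alone), over members that went both ways. Ldha, which makes lactate, had 4198, 5811, 5078 and 3686 CPM at 8 h and 2171, 4831 and 6744 CPM at 0 h. Slc2a1, a glucose transporter, rose from 4.43, 24.2 and 79.9 CPM to 150, 247, 275 and 108 CPM, and Aldoc and Pfkm fell by 4.00 and 1.87. Of 10 tested hypoxia genes 4 rose, among them Adm and Ndrg1, and 4 fell, among them Pdk1 (-2.49). Among all genes 25.7% went each way.

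Protein folding genes went both ways. In the heat shock list 11 of 16 tested rose and 4 fell (median 0.94). In the list of endoplasmic reticulum stress 3 of 17 rose and 8 fell (median -0.60). Among all genes 25.7% rose and 25.7% fell. Hsph1, a cytosolic chaperone, rose from 6.64, 13.7 and 19.4 CPM to 47.9, 60.6, 72.4 and 51.6 CPM, and Hspa4l by 3.08 on the log2 scale. The chaperone genes Hspa1a, Hspa1b, Dnajb4 and Hspa4 fell by 3.31, 1.94, 0.90 and 0.48, with Dnajb4 not called without library 3 of 8 h (edgeR adjusted p = 0.0584) and Hspa4 not without library 1 or 3 (0.0667 and 0.0629). Hsp90ab1, Hspd1 and Hspe1 were back within 2-fold, Hspd1 not so when library 2, 3 or 4 of 8 h was left out, and Hspe1 not without library 1. In the endoplasmic reticulum, Herpud1 fell from a median of 34.2 CPM to 4.45 to 9.29 CPM and Hsp90b1 from 1122, 1758 and 2479 CPM to 803, 801, 633 and 850 CPM. Atf4 and its target Asns rose by 1.19 and 3.15.

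In the antioxidant list 9 of 18 tested rose and 5 fell (3 fell without library 4 of 8 h), with a median of 0.43. Among all genes 25.7% rose and 25.7% fell. Txn1, thioredoxin, rose from 15.9, 41.4 and 88.8 CPM to 269, 329, 173 and 260 CPM, and its inhibitor Txnip fell from 115, 286 and 469 CPM to 31.1, 28.7, 15.2 and 24.3 CPM. Of 12 tested NF-kB and inflammatory genes 6 rose and 1 fell (median 1.30), with Nfkbia, the inhibitor that NF-kB itself induces, rising from a median of 68.6 CPM to 231 to 385 CPM. The other 7 of the 19 listed genes, Il1b and Lif among them, were too low to test. Of 14 tested p53 targets and apoptosis genes 5 rose and 3 fell (median 0.13), near the 25.7% each way of all genes.

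Of 16 tested clock genes 7 rose and 5 fell (median 0.29), beside 25.7% each way of all genes. Per1 rose from 43.2, 59.5 and 124 CPM to 601, 911, 1031 and 780 CPM (log2 fold change 3.57 ± 0.18, edgeR adjusted p = 5.81e-31), and Nfil3 from at most 8.8 CPM to 91.5 to 231 CPM. Rora, which drives Arntl, had medians of 10.3 CPM at 0 h and 10.1 CPM at 4 h and rose to 76.5, 128, 134 and 70.3 CPM at 8 h. Nr1d2, a repressor of Arntl, fell from 8.21, 19.1 and 25.5 CPM to 1.66 to 2.93 CPM, and Arntl itself rose by 1.92 ± 0.27 on the log2 scale.

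Most tested translation factors and proteasome subunits rose. Of 20 tested translation factors 13 rose, 9 of them over 2-fold, and 4 fell (median 1.11). Among all genes 25.7% rose, 10.5% rose over 2-fold and 25.7% fell. Eif4a1, an RNA helicase of initiation, rose from 150, 223 and 304 CPM to 610, 688, 511 and 550 CPM, and Eef1a1, the main elongation factor, was back at 9691, 11849, 8046 and 9163 CPM beside a 0 h median of 9552 CPM. Of 34 proteasome subunits 30 rose and 1, Psma2, fell (median 0.90), but only Psmc1, Psmd13 and Psmd4 were over 2-fold higher. Psmd13 rose from 22.3, 33.7 and 45.2 CPM to 110, 101, 99.3 and 98 CPM.

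Of 80 tested cytosolic ribosomal proteins 33 fell, 2 rose and 38 were within 2-fold of 0 h (median -0.45). The number that fell was 14 without library 3 of 8 h, 19 with the 0 h libraries of row F alone and 20 with library totals alone, and processed pseudogenes may share their reads. Of 75 nuclear-encoded genes of oxidative phosphorylation 12 rose, 24 fell and 36 were within 2-fold (median -0.26), beside 25.7%, 25.7% and 16.2% of all genes. Of 13 tested MHC class I and peptide transport genes 9 fell and 1, Tap2, rose (median -1.08). B2m, the light chain, fell from a median of 95.1 CPM to 43.5 to 61.2 CPM, and H2-D1 stood at 1182 CPM in library 3 and at 34.1 to 59.8 CPM in the other 3. H2-D1 was not called with all 4 libraries and was lower by edgeR without library 3 (log2 fold change -2.84, adjusted p = 0.000603).

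Basement membrane and collagen genes fell in 7 of 16 cases and rose in 2 (median -0.85). Theca and stroma markers fell in 8 of 14 and rose in 1, Hhip (median -1.85). Among all genes 25.7% fell and 25.7% rose. Col1a2 had 49.5, 319 and 787 CPM at 0 h and 16.2, 28.2, 64.1 and 11.6 CPM at 8 h, and Col6a1 had 32.6, 148 and 451 CPM and 9.43, 5.94, 26.4 and 12.9 CPM. Lamc1, a laminin chain, rose by 1.66 ± 0.29 on the log2 scale. The theca and stroma marker list itself holds Col1a1, Col1a2 and Col3a1, so its share of the counts is not separate evidence on the collagens. The highest 8 h value of that share, 0.0579%, lies within the 0 h range. The part of stromal cells carried along with a follicle was not tested. Cyp17a1, the androgen-making enzyme of theca cells, had 0.356, 23.9, 2.45 and 0.368 CPM at 8 h and 4.09, 51.8 and 219 CPM at 0 h (log2 fold change -3.24 ± 1.05, edgeR adjusted p = 0.00731).

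The same change was measured in vitrified follicles, which share neither 0 h nor 8 h libraries with the fresh ones but share their plates. With the 3 vitrified 8 h libraries of the plate that held the fresh 8 h libraries, 3092 genes were higher (26%) and 2663 lower (22.4%) than in the 15 vitrified libraries of 0 h. With 9 on a plate of vitrified follicles alone, 3183 were higher (26.8%) and 3348 lower (28.2%). Of the 1252 genes over 2-fold higher in fresh follicles 1139 (91.0%) were also called higher on the first plate and 1147 (91.6%) on the second. Of the 1252 over 2-fold lower 1117 (89.2%) and 1128 (90.1%) were also called lower. Of the 706 genes back in fresh follicles 291 and 478 were within 2-fold in vitrified ones, and 25 and 52 were called with at least a 2-fold change. These counts rest on 3 and 9 vitrified libraries of 8 h, and the within-2-fold test can place more genes when it has more libraries. The share of all genes within 2-fold in vitrified follicles was not counted, so 291 and 478 have no background to be read against. Of the 65 genes with a new level at 8 h alone 63 and 55 were called the same way.

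A differing change in vitrified and fresh follicles was called for 114 genes on the shared plate, 18 higher and 96 lower in vitrified follicles by edgeR. The number was 5 without vitrified library 3 of 8 h, 72 without fresh library 4, and 1270 with the 9 libraries of the other plate. None of the 60 genes named for their size of change or return was among the 114. With 114 called of 11889 tested, none among 60 says little about the named genes. Their differences were not all small: vitrified minus fresh, they ran from -4.87 (Ptx3, SE 40.9) to 2.46 among the 15 rises and from -1.24 to 2.56 among the 15 falls. Spred2, an inhibitor of the MAPK pathway, rose by 4.33 in fresh follicles, from 2.06, 4.59 and 10.2 CPM to 90.6, 108, 109 and 73.3 CPM, and by 2.26 in vitrified ones, a difference of -2.06 ± 0.46 (edgeR adjusted p = 0.00711). Pgr rose by 1.99 in fresh and 4.84 in vitrified follicles, a difference of 2.85 ± 0.73 (edgeR adjusted p = 0.0317). The antioxidant enzyme genes Gsr and Txnrd1 rose by 1.96 and 1.54 in fresh follicles, and in vitrified ones their log2 fold changes of -0.42 and -0.68 were not called. For Runx2, Vcan, Star, Scarb1, Inhba, Gja1, Cyp19a1 and Fkbp5 no difference was called on the shared plate, with values between -0.89 (Star) and 0.63 (Cyp19a1).

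**Figure D5:**
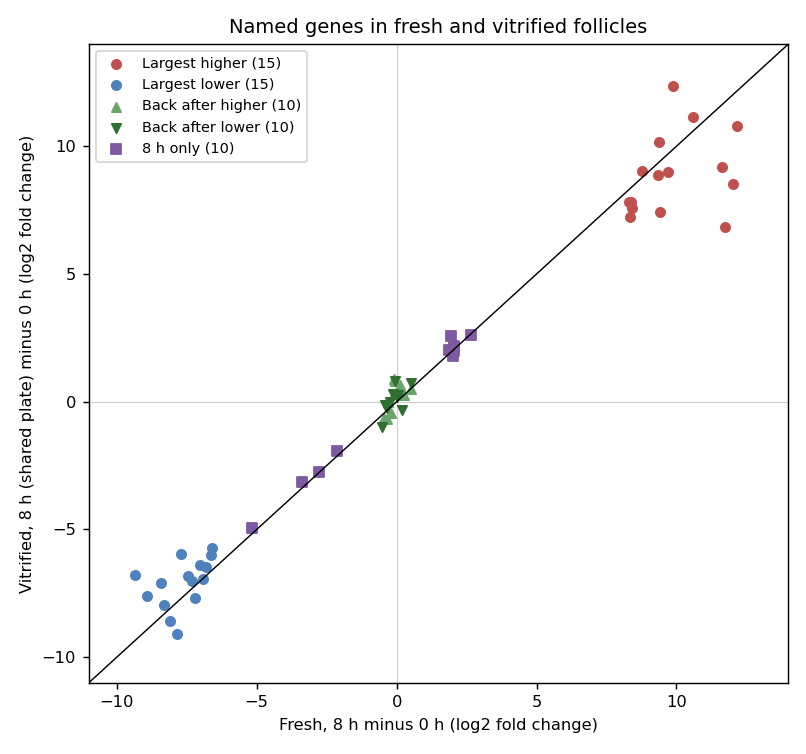
Log2 fold change from 0 h to 8 h of 60 named genes in fresh follicles (horizontal) and in vitrified follicles of the shared plate (vertical), 1 point per gene, with a line where both are equal. Genes back at 0 h in fresh follicles lie between -0.97 and 0.90 in vitrified ones, and those with a new level at 8 h alone lie near the line.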

How the data were processed

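Single follicles were sequenced after Smart-Seq2 amplification and Nextera XT library preparation, which does not mark strand, per the labels' protocols. The authors deposited a table of estimated counts per gene symbol, of which 17.2% of values were not whole, and a table that, per its name, holds log2(TPM + 1) values made by the authors. HISAT2, Bowtie2, Partek, DESeq2 and the mm10 build are named in the submitters' processing notes. Estimated counts were rounded, and 21 date-like symbols could not be read as genes. Genes with enough counts (filterByExpr, minimum count 10) were scaled by TMM and fitted with edgeR 4.0.16 (quasi-likelihood, robust) in R 4.3.3, in 1 model of all 83 libraries, each combination of group and plate having its own mean. p-values were adjusted by Benjamini-Hochberg, with 0.05 as the threshold. A gene was "over 2-fold" by glmTreat, "within 2-fold" by a pair of one-sided tests, and "back" if called with at least a 2-fold change at 1 h or 4 h and within 2-fold at 8 h. CPM are TMM-scaled. The script was tested on simulated counts. Named genes were the 15 largest rises and falls over 2-fold, the 10 largest earlier changes in each direction among genes that were back, and the 10 largest new levels at 8 h alone, with at least 50 CPM in the highest group (for rises and falls, no overlap between the groups), and any member of the gene lists. The members and lists were chosen with earlier results of these data known. Gene bounds are GENCODE vM21 on GRCm38. Counting intervals and floors of 3 counts cover counting error only. Results for some genes are not reported here.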

Additional observations from a re-analysis of the deposited data

Results flagged for a closer look

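In several genes 1 of the 4 fresh libraries of 8 h stood apart from the other 3 by Dixon's test. Of 208 genes examined 11 did so, and a test of this kind picks out about 5% of groups by chance. In the third library Lyve1 had 1208 CPM, H2-D1 had 1182 CPM, Btg2 had 79.7 CPM and Zp3 had 4.89 CPM, and the endothelial marker share was 0.00415%, also apart from the other 3. In the fourth library Ptx3 had 749 CPM, Fst had 60.4 CPM, Inhbb had 2.39 CPM, Il6 had 1.29 CPM and Fosb had 0.184 CPM. Cyp17a1 had 23.9 CPM in the second library. In the first library Fshr had 21.4 CPM and the 50 most abundant genes took 34.1% of the counts.

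For 5 named genes the change from 0 h to 8 h differed between vitrified and fresh follicles on the shared plate by edgeR's interaction test. Vitrified minus fresh, on the log2 scale, the difference was 2.85 for Pgr, -2.06 for Spred2, -2.38 for Gsr, -2.22 for Txnrd1 and -2.35 for Gata4. Without vitrified library 3 of 8 h the test called 5 genes over all tested genes. Whether any of the named ones was among them was not examined.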

How the results depend on the processing

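The number of genes called between 8 h and 0 h stayed within 1.5 times of 6115 under every alternative, from 5405 to 5624 when 1 library of 8 h was left out. Leaving out 1 library gave 2159 to 2359 genes over 2-fold, 1338 to 1500 within 2-fold, 456 to 522 back, 53 to 64 with a new level at 8 h alone and 5 to 140 that differed between vitrified and fresh follicles. The number back was 3 with a margin of 1.5-fold and 1510 with no minimum earlier fold. The number with a new level at 8 h alone was 41 and 39 with the 0 h libraries of row E or row F alone. The number that differed in vitrified follicles was 1270 with the 9 libraries of the other plate. By limma on log2(TPM + 1) and log2(TPM + 0.1), 77.3% and 75.7% of called genes were higher, and the median over all genes was 0.22 and 0.47. Among the 208 genes followed in the text, 4 changed sign and were called in the main fit or by limma. They were Cdk4 (0.52 in both), Tmem86a (0.56 in both), Cyb5b (0.066 and 0.069) and Hspa4 (0.10 and 0.12). Sign changes of genes called in neither were not counted. By limma on log2(TPM + 1), Cyp11a1 was called higher (1.86) and Fshr, B2m and Psma2 were not called. For all of these the cause was not tested. No paired analysis was possible because the labels give no replicate numbers that pair the groups. Genes of few counts, the oocyte markers among them, are limited by depth.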
